A study of Mus musculus with 12 samples.

Results

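The genes described here form the G2/M and mitosis programme, a set of genes that dividing cells use between the end of DNA replication and the separation of the daughter cells. The set was given as 39 names, which stand for 38 genes because Cdc2a is an older name of Cdk1. Of these, 37 had a line of their own among the 23174 lines of each expression table. The remaining gene, Foxm1, stood only in an entry joined with 4933413G19Rik, so its values are given apart and it is left out of the counts. All 37 were abundant enough to be tested ex vivo (a mean of at least 1 FPKM, the fragments mapped to a transcript scaled by its length and by the size of the library), among 10245 lines, and 36 were tested in the tumours, among 10741 lines. Cks2 averaged 0.783 FPKM in the tumours and was not tested there.

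All samples were T cell acute lymphoblastic leukaemia (T-ALL, in which immature T cells become malignant) from C57BL/6 mice whose leukaemia carried Notch1-deltaE+, a form of Notch1 that lacks most of the extracellular part and is active without ligand. In the ex vivo experiment, 3 samples were given AMD3100, an inhibitor of the CXCR4 receptor for the chemokine CXCL12, and 3 were given vehicle, at a dose and time not given in the sources used here. In the other experiment, 3 primary tumours were Cxcr4+/+ (label numbers 1, 2 and 4) and 3 were Cxcr4-/- (label numbers 5, 7 and 8), all Notch1-deltaE+ as well. The labels describe spleen cells kept with 5 ng/ml of IL-7 on OP9 stroma, a feeder line whose division was stopped with mitomycin C. They give this culture for the tumours too, and whether that holds was not tested. They name neither the cell type in which Cxcr4 was deleted nor the driver of Notch1-deltaE, and they do not say that samples of one group came from separate animals or cultures, so p-values measure only the spread between these samples.

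Entry into mitosis is driven by the kinase CDK1 bound to cyclin B. The spindle checkpoint holds the cell until every chromosome is attached to microtubules, and the anaphase-promoting complex, with its activator CDC20, then marks cyclin B and securin for destruction so that the chromatids part. Transcripts of many of these genes accumulate in G2 and M, under the transcription factors FOXM1 and B-MYB with the MuvB complex, and they are widely read as a measure of how many cells are dividing. In bulk RNA, fewer dividing cells and less RNA per dividing cell cannot be told apart.

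Promoters of such genes are known for a pair of short elements, the cell cycle genes homology region (CHR, letters TTTGAA), at which MuvB binds, and the CCAAT box (letters CCAAT), at which NF-Y binds. Both were searched on both strands in 300-base windows around the annotated start (250 bases before and 50 after, RefSeq, build GRCm38.p6), with which 31 of the 38 genes could be matched. On the opposite strand the CHR reads TTCAAA. The CCAAT box reads ATTGG there, and its matches were counted whether or not they touched a CHR. The letters of the CHR stood in 21 of 31 windows (67.7%), against 20.2% of the 27025 symbols of the table. CCAAT stood in 23 of 31 (74.2%), against 41.1% of all symbols, and both stood in 18 (58.1%), against 8.97%. A match describes these letters only and is not a measured binding site.

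The 110 bases before the start are shown for 5 genes, chosen after their values were seen: Cdc20, Cdk1 and Ccnb2, which fell with AMD3100, Ube2c, which lay higher with AMD3100 in every pair without passing the test, and Top2a, which hardly moved. Capitals mark the CHR letters and the CCAAT box on either strand, and each sequence reads 5′ to 3′ on the gene's strand. Cdc20 lies at chr4:118437344-118437453 (minus strand), Cdk1 at chr10:69352913-69353022 (minus), Ccnb2 at chr9:70421555-70421664 (minus), Ube2c at chr2:164769819-164769928 (plus) and Top2a at chr11:99024190-99024299 (minus), all GRCm38.p6.
Cdc20: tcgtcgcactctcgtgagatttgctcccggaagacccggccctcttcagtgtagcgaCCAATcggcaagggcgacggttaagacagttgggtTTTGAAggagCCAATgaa
Cdk1: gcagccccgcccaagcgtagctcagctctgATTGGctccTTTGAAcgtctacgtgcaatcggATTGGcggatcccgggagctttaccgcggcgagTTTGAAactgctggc
Ccnb2: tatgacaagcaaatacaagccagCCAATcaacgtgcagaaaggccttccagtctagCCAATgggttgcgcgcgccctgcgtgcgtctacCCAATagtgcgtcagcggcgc
Ube2c: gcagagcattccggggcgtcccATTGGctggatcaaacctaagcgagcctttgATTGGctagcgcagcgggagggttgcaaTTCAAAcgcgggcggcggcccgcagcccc
Top2a: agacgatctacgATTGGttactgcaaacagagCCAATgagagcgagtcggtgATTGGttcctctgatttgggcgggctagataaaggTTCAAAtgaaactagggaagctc

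In these windows Cdk1 held 2 copies of the CHR letters, Cdc20, Ube2c and Top2a held 1 each, and Ccnb2 held none. Each of the 5 held 2 or 3 CCAAT boxes there. The longer, 300-base window of Ccnb2 did hold the CHR letters, both further upstream and just past the start, outside the stretch shown. In the stretches shown, both elements stood before Cdc20 and Cdk1, which fell, and before Ube2c and Top2a, which did not. Birc5, the member with the largest fall, had neither in its 300-base window, and Ccna2 and Aurkb, which also fell, could not be matched with a window. Whether the elements bear on the response to AMD3100 was not tested. Among the 4 matched genes that fell, 3 held the CHR letters (75.0%), beside the 67.7% of all members.

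Ex vivo, the summed level of 10 T lineage markers (among them Cd3e, Lck and Thy1) lay between 4818 and 5496 FPKM, all 7 neutrophil markers were listed at 0, and erythroid markers summed to at most 5.51 FPKM. Markers of stroma, the lineage of the feeder cells, summed to between 13.9 and 203 FPKM and were lowest in pair 3. These stroma markers were higher with AMD3100 in 3 of 3 pairs (157 to 173, 195 to 203 and 13.9 to 24.5 FPKM), and the T lineage markers were lower in 3 of 3 (5496 to 4818, 5239 to 5027 and 5088 to 4848 FPKM). The steps between low values gave relative depths of 0.757 to 1.25, with vehicle 1 set to 1, and the 3 AMD3100 libraries were the deepest. The total read number of the libraries is unknown. In the tumours, Cxcr4 was listed at 241, 155 and 206 FPKM in the Cxcr4+/+ samples and at 23.2, 78.9 and 21.9 FPKM in the Cxcr4-/- samples, so each sample lay on the side of its label.

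The ex vivo comparison set AMD3100 against vehicle. Of the 37 genes, 6 fell with AMD3100 and 0 rose in the paired test (limma, same-numbered samples as pairs, Benjamini-Hochberg over all lines, adjusted p under 0.05): Birc5, Cdc20, Aurkb, Ccnb2, Ccna2 and Cdk1. Over all lines tested, 9.92% fell and 9.96% rose in the same fit, so the 16.2% of members that fell stood above the share of all lines and the members that rose below it, a difference that was not itself tested. With a minimum of 5 FPKM, 13.1% of all lines fell and 12.3% rose, beside 6 and 0 of 36 members. The 6 falls were small, between 19.8% and 28.1% of the mean vehicle FPKM. Without the pairing, 0 of 37 fell and 0 rose (limma), when 0.0781% of all lines fell and 0.0488% rose. At an unadjusted p under 0.05 the paired fit held 17 members (45.9%, against 39% of all lines) and the unpaired fit 8 (21.6%, against 21.5%). The stroma and T lineage markers given above also differed between the treatments in each pair, and their part in the falls was not tested. Leaving out pair 1 or pair 2 left 0 of these calls, and leaving out pair 3 left 2, Cdc20 and Birc5. Over all lines, leaving out pair 1 left 2 lower and 7 higher calls, leaving out pair 2 left 4 and 3, and leaving out pair 3 left 623 and 584, against 1016 and 1020 with all pairs.

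The direction was shared more widely than the calls. In 20 of 37 genes (54.1%) the AMD3100 sample was the lower one in 3 of 3 pairs, against 29.4% of all lines, and in 6 genes it was the higher one in 3 of 3 pairs, against 30.8% of all lines. In 9 genes every AMD3100 sample lay below every vehicle sample, against 15.8% of all lines. In 1 gene, Ube2c, every AMD3100 sample lay above, against 13.1% of all lines. The mean difference in log2(FPKM + 1), a scale that compresses changes of weakly expressed genes, was below 0 in 29 of 37 genes (49.7% of all lines), with a median of -0.13 (range -0.47 to 0.25), beside a median of 0.0022 over all lines. Within the pairs the member median was -0.09 in pair 1, -0.21 in pair 2 and -0.20 in pair 3, and 21, 30 and 29 members were lower. The library AMD3100 2 held the lowest value of 26 members and vehicle 3 the highest value of 22.

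**Figure D1:**
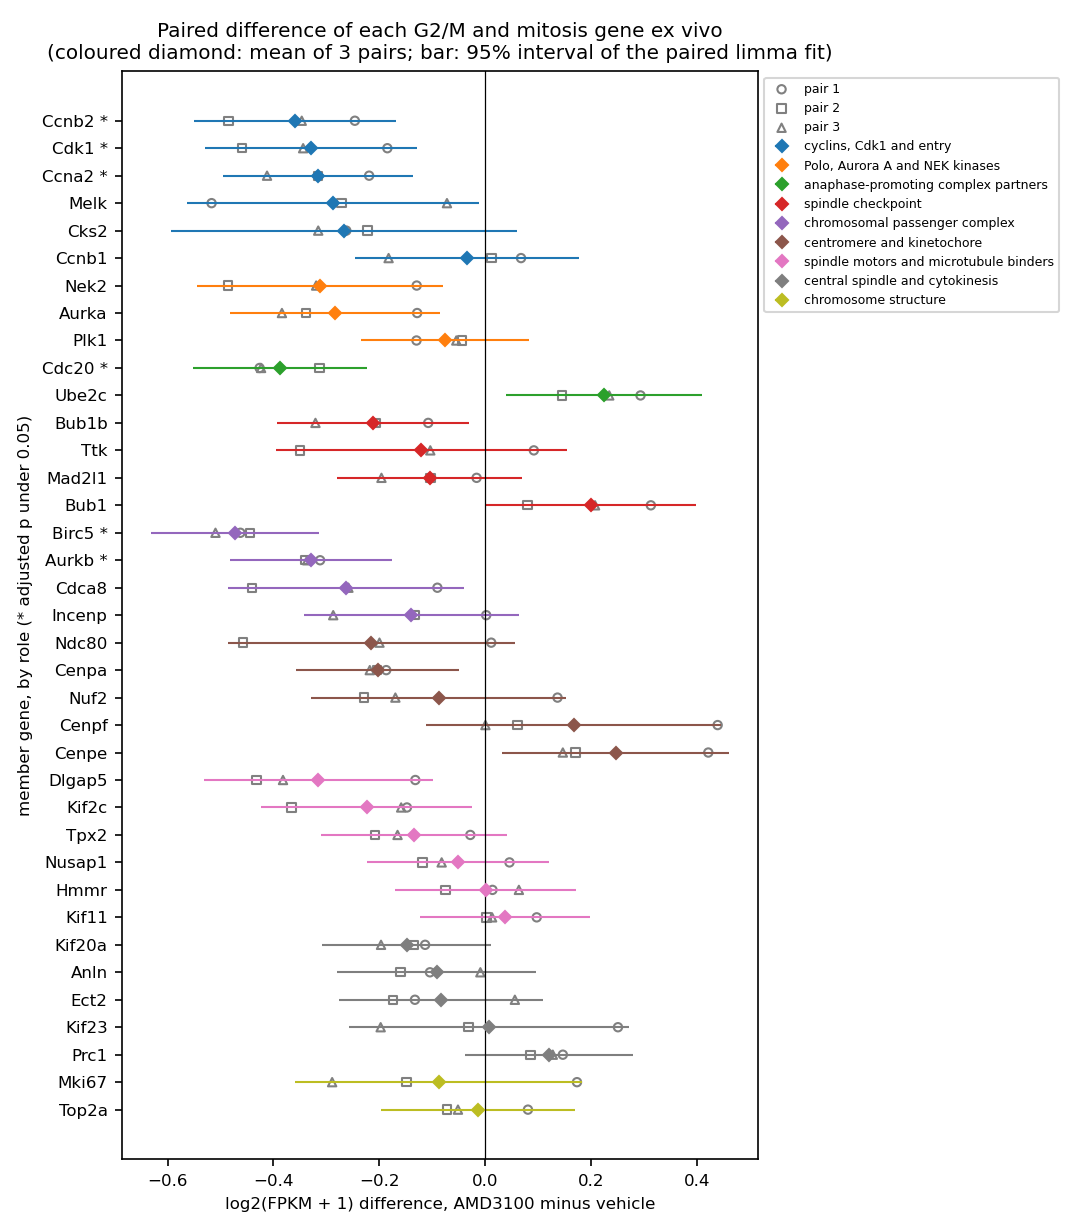
Difference in log2(FPKM + 1), AMD3100 minus vehicle, of each of the 37 genes on the x axis, by role on the y axis: open symbols are the 3 pairs, diamonds the mean and bars the 95% interval of the paired limma fit. The 6 starred genes, Birc5, Cdc20, Aurkb, Ccnb2, Ccna2 and Cdk1, passed the test and all lie below 0, from -0.47 to -0.32, while Ube2c, Bub1 and Cenpe lie above 0 in every pair.

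Among the cyclins, Cdk1 and the genes of mitotic entry, 3 of 6 fell and the median difference was -0.30 (log2). Cdk1, the kinase that starts mitosis, measured 72.7, 71.8 and 78.7 FPKM in vehicle 1 to 3 and 63.8, 52.0 and 61.8 FPKM in AMD3100 1 to 3. Every AMD3100 sample lay below every vehicle sample. The difference was -0.33 (log2, SE 0.08, paired limma, adjusted p = 0.0448), and with quantile scaling it was -0.28 and no longer a call (adjusted p = 0.0608).

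Ccnb2, which encodes cyclin B2, a partner of CDK1, was listed at 171, 162 and 211 FPKM with vehicle and at 144, 115 and 165 FPKM with AMD3100. Each AMD3100 sample was below its vehicle partner, but the groups overlapped, because AMD3100 3 lay above vehicle 2. Its difference was -0.36 (SE 0.07, paired limma, adjusted p = 0.0343), and it lost its call with a transcript length correction (-0.24, adjusted p = 0.0960) and with quantile scaling (-0.24, adjusted p = 0.0942). Ccna2, which encodes cyclin A2, active from S phase to early mitosis, measured 181, 171 and 202 FPKM with vehicle and 156, 137 and 152 FPKM with AMD3100. Its groups did not overlap, and the difference was -0.32 (SE 0.07, paired limma, adjusted p = 0.0391). It too lost its call with the length correction (-0.29, limma, adjusted p = 0.0596) and with quantile scaling (-0.18, limma, adjusted p = 0.122).

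Ccnb1, which encodes the other main mitotic cyclin, was not called, and whether its change differed from that of Ccnb2 was not tested. It measured 28.2, 22.6 and 25.2 FPKM with vehicle and 29.6, 22.8 and 22.1 FPKM with AMD3100. The groups overlapped, and the difference of -0.03 had a 95% interval of -0.25 to 0.18 (paired limma, adjusted p = 0.789). Melk, a kinase of dividing progenitor cells, differed by -0.29 (adjusted p = 0.119, paired limma), and Cks2, which binds CDK1, by -0.27 (adjusted p = 0.189, paired limma), both lower in 3 of 3 pairs. The joined entry that holds Foxm1, a transcription factor of G2/M genes, was listed at 41.5, 42.3 and 43.1 FPKM with vehicle and at 51.3, 46.0 and 51.7 FPKM with AMD3100. It lay higher in every pair (difference 0.22, 95% interval 0.04 to 0.41) but did not pass the paired limma test (adjusted p = 0.0824), and the shares of the joined genes in it cannot be separated.

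Of the mitotic kinases outside that group, 0 of 3 passed the test, with a median difference of -0.28. Aurka, the Aurora kinase of centrosomes and spindle poles, measured 79.1, 69.7 and 94.8 FPKM with vehicle and 72.3, 54.9 and 72.4 FPKM with AMD3100. All pairs were lower with AMD3100 while the groups overlapped, and the difference was -0.28 (SE 0.08, paired limma, adjusted p = 0.0609). Nek2, a kinase of centrosome separation, differed by -0.31 (adjusted p = 0.0699, paired limma). Plk1, the Polo kinase that acts at entry, at kinetochores and in cytokinesis, measured 109.5, 94.4 and 97.2 FPKM with vehicle and 100.01, 91.6 and 93.6 FPKM with AMD3100. Its groups overlapped and its difference was -0.08 (95% interval -0.23 to 0.08).

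Of the partners of the anaphase-promoting complex, 1 of 2 fell. Cdc20, its activator, measured 120.4, 97.8 and 108 FPKM with vehicle and 89.4, 78.6 and 80.4 FPKM with AMD3100. The groups did not overlap, and the gene fell by 0.39 on the log2 scale (SE 0.06, paired limma, adjusted p = 0.0240). Ube2c, the enzyme that adds ubiquitin for the same complex, was listed at 358, 353 and 358 FPKM with vehicle and at 439, 390.0 and 421 FPKM with AMD3100. All AMD3100 samples lay above all vehicle samples, with a difference of 0.22 (95% interval 0.04 to 0.41), which did not pass the test (paired limma, adjusted p = 0.0858). Ube2c was also the most abundant of the 37 genes ex vivo, at a mean of 387 FPKM over the 6 samples.

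The chromosomal passenger complex corrects faulty attachments and later organises the cleavage furrow, and 2 of its 4 genes fell, with a median difference of -0.30. Birc5, which encodes survivin, its targeting subunit, measured 207, 179.9 and 211 FPKM with vehicle and 149.7, 132 and 148 FPKM with AMD3100. The groups were well apart, and the difference of -0.47 (SE 0.06, paired limma, adjusted p = 0.0197) was the largest of the 37 in size. Aurkb, the kinase of the complex, was listed at 124, 109.6 and 139 FPKM with vehicle and at 99.4, 86.4 and 110.1 FPKM with AMD3100. Each pair fell by a like amount, between 0.31 and 0.34 on the log2 scale, while the groups overlapped at vehicle 2 and AMD3100 3, and the mean difference was -0.33 (SE 0.06, paired limma, adjusted p = 0.0279). Its call was lost with the length correction (-0.25, limma, adjusted p = 0.0592) and with quantile scaling (-0.24, limma, adjusted p = 0.0534). Cdca8, which encodes borealin, differed by -0.26 (adjusted p = 0.0911, paired limma), and Incenp, the scaffold, by -0.14 (adjusted p = 0.254, paired limma).

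None of the 4 spindle checkpoint genes passed the test, at a median difference of -0.11. Mad2l1, which encodes MAD2, an inhibitor of CDC20, measured 66.4, 66.7 and 67.3 FPKM with vehicle and 65.7, 62.1 and 58.7 FPKM with AMD3100. The groups did not overlap, yet the difference was only -0.11 (95% interval -0.28 to 0.07, paired limma, adjusted p = 0.308). With each pair corrected for transcript length, Mad2l1 did pass the test, at -0.32 (paired limma, adjusted p = 0.0482). The correction took the longest annotated transcript of each gene, 7557 bases for Mad2l1. Whether that transcript was the one expressed was not tested. The checkpoint kinases differed in sign: Bub1 by 0.20 (higher in 3 of 3 pairs, adjusted p = 0.125) and Bub1b, which encodes BUBR1, by -0.21 (lower in 3 of 3 pairs, adjusted p = 0.0936, both paired limma). Ttk, which encodes the kinase MPS1, differed by -0.12 (adjusted p = 0.446, paired limma).

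The 5 centromere and kinetochore genes had a median difference of -0.09, with 0 of 5 past the test and differences on both sides of 0. Ndc80, which encodes the microtubule-binding subunit of the outer kinetochore, measured 39.7, 47.4 and 41.5 FPKM with vehicle and 40.0, 34.2 and 36 FPKM with AMD3100. It was lower in pairs 2 and 3 only, and the groups overlapped, with a difference of -0.22 (95% interval -0.49 to 0.06). Cenpa, the histone H3 variant of centromeres, differed by -0.20 (adjusted p = 0.0718, paired limma), and its groups did not overlap. Cenpe, a kinetochore motor, and Cenpf, a large coiled-coil protein, had positive differences of 0.25 (adjusted p = 0.0959, paired limma) and 0.17 (adjusted p = 0.310, paired limma). Nuf2, the partner of NDC80, differed by -0.09 (adjusted p = 0.528, paired limma).

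Spindle motors and microtubule binders had a median difference of -0.09, and 0 of 6 passed the test. Kif11, the motor that pushes the spindle poles apart, measured 90.5, 91.4 and 104 FPKM with vehicle and 96.9, 91.5 and 105 FPKM with AMD3100. The groups overlapped, and the interval of its difference, -0.12 to 0.20, spanned 0. Dlgap5, a spindle-stabilising protein, came nearest to a call in this group, at -0.32 (adjusted p = 0.0586, paired limma), with groups that did not overlap. Kif2c, a motor that takes microtubules apart, was lower in 3 of 3 pairs at -0.22 (95% interval -0.42 to -0.03, short of a call), as was Tpx2, the activator of Aurora A, at -0.13 (adjusted p = 0.214, paired limma). Nusap1 and Hmmr, both microtubule binders, differed by -0.05 and by 0.000874.

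For the central spindle and cytokinesis, 0 of 5 genes passed the test and the median difference was -0.08. Anln, which encodes the furrow protein anillin, measured 22.0, 22.7 and 30.8 FPKM with vehicle and 20.4, 20.2 and 30.6 FPKM with AMD3100, overlapping groups with a difference of -0.09 (95% interval -0.28 to 0.10). Prc1, which bundles the microtubules of the central spindle, was higher in 3 of 3 pairs, at 0.12 (adjusted p = 0.218, paired limma). Kif20a, a motor of the central spindle, was lower in 3 of 3 pairs, at -0.15 (adjusted p = 0.147, paired limma). Ect2, the exchange factor that activates RhoA at the furrow, differed by -0.08 and Kif23, a motor of the centralspindlin complex, by 0.01.

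The genes of chromosome structure were among the most abundant and hardly differed. Top2a, the topoisomerase that untangles sister chromatids, measured 313, 307 and 339 FPKM with vehicle and 331, 292 and 327 FPKM with AMD3100. Its difference was -0.01 with a 95% interval of -0.20 to 0.17. Mki67, which encodes the proliferation antigen Ki-67, measured 162, 209.8 and 258 FPKM with vehicle and 183, 189 and 211 FPKM with AMD3100. It was higher in pair 1 and lower in pairs 2 and 3, with a difference of -0.09 (95% interval -0.36 to 0.18).

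**Figure D2:**
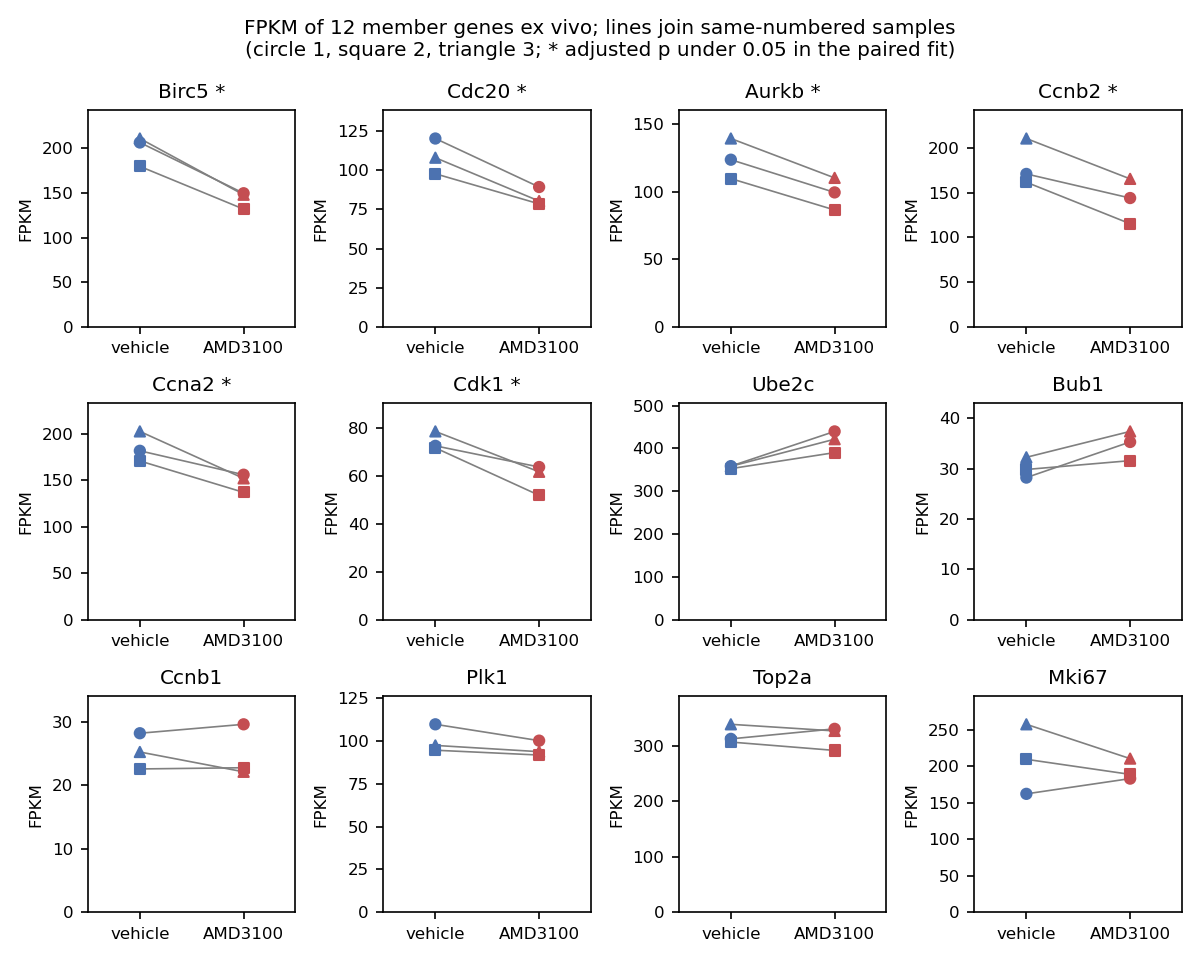
FPKM (y axis, from 0) of 12 of the genes in vehicle and AMD3100 samples, with lines joining samples of the same number (circle 1, square 2, triangle 3). All 3 lines slope down in the 6 starred genes, for example from 207, 179.9 and 211 to 149.7, 132 and 148 FPKM for Birc5, while they slope up for Ube2c and Bub1 and differ in direction for Ccnb1, Top2a and Mki67.

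Other genes of mitosis, taken from lists of the condensin, cohesin, anaphase-promoting, entry, kinetochore, spindle and cytokinesis machinery (121 genes tested), gave calls in both directions. In the paired limma test 15 fell (12.4%) and 3 rose (2.48%), beside the background of 9.92% and 9.96%, and the median difference was -0.08. The shares were not tested against those of all lines or of the members. These calls too depended on the pairing: without it 0 fell and 0 rose (0.0781% and 0.0488% of all lines). Without pair 1, 2 or 3 there were 0, 0 and 4 falls and 0 rises. Of all lines, 0.0196%, 0.0395% and 6.08% fell and 0.0685%, 0.0296% and 5.7% rose in those fits. With the transcript length correction 9 fell and 0 rose, when 6.73% of all lines fell and 6.15% rose. The 4 calls among 16 genes of the anaphase-promoting complex and its inhibitors were all falls of its own subunits, Anapc13 (-0.69, from a range of 132 to 155 FPKM with vehicle to 85.8 to 99.9 FPKM with AMD3100), Cdc23 (-0.35), Anapc2 (-0.31) and Anapc4 (-0.29). In the entry list 2 of 16 fell, Arpp19 (-0.49), an inhibitor of the phosphatase that opposes CDK1, and Mybl2 (-0.33), which encodes B-MYB. Next in that list came Cdc25a, a phosphatase that activates cyclin-dependent kinases, at 0.26 without passing the test (paired limma, adjusted p = 0.0645).

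In the cytokinesis list both directions occurred among 7 genes: Racgap1 (-0.36), the partner of Ect2 and Kif23 at the central spindle, and Chmp4b (-0.32), a subunit of the abscission machinery, fell, while Cit (0.49) and Kif14 (0.39), which encode citron kinase and the motor that recruits it, rose. The list of further kinetochore genes held 2 falls, Zwint (-0.28) and Cenpp (-0.73), and 1 rise, Casc5 (0.41), the kinetochore scaffold that binds BUB1. The 3 falls in the spindle list of 27 were Haus8 (-0.55), Haus7 (-0.43) and Kif22 (-0.35). Condensin and cohesin gave 1 fall each, Ncaph2 (-0.34) of 8 and Cdca5 (-0.31), which encodes sororin, of 17. Next by p in these lists, none past the paired limma test, were the condensin subunits Smc4 (0.26, adjusted p = 0.0831) and Ncaph (-0.23, adjusted p = 0.0860), the cohesin loader Nipbl (0.26, adjusted p = 0.0617) and the cohesin subunit Smc1a (-0.26, adjusted p = 0.0640).

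The tumour comparison set Cxcr4-/- against Cxcr4+/+ samples. None of the 36 genes tested passed the test in either direction (limma, smallest adjusted p = 0.986), and 0 reached an unadjusted p under 0.05, against 4.28% of all lines. Over all lines 0.0186% were called lower and 0.0186% higher. In 0 of 36 genes did the genotypes fail to overlap, against 9.21% of all lines. The mean difference, Cxcr4-/- minus Cxcr4+/+, was below 0 in 34 of 36 genes (52.3% of all lines), with a median of -0.37 (range -1.13 to 0.36), beside -0.03 over all lines.

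That median turned on single tumours. It was 0.25 without Cxcr4+/+ 4 and 0.15 without Cxcr4-/- 7, and it was -1.07 without Cxcr4+/+ 1 and -1.05 without Cxcr4-/- 5. Without Cxcr4+/+ 2 it was -0.24, and without Cxcr4-/- 8 it was -0.17. The median half-width of a member's 95% interval was 1.99 (log2), against 1.09 over all lines, so differences of several-fold in either direction lie inside many of these intervals. Upper limits were smaller for some members, down to 0.70 for Mad2l1.

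The tumours differed from each other far more than the genotypes did. The mean level over the 36 genes was 3.60, 5.42 and 6.31 (log2(FPKM + 1)) in Cxcr4+/+ 1, 2 and 4, and 6.07, 3.76 and 4.32 in Cxcr4-/- 5, 7 and 8. The highest tumours of both genotypes were thus alike, and so were the lowest. Cxcr4+/+ 4 held the highest value of 30 genes and Cxcr4-/- 5 of the other 6. The lowest value lay in Cxcr4+/+ 1 for 18 genes, in Cxcr4-/- 7 for 14 and in Cxcr4-/- 8 for 4. The highest value exceeded the lowest by between 5.02-fold (Cdc20) and 66.1-fold (Melk).

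This spread was larger than that of most lines. The standard deviation within a genotype had a median of 1.31 (log2) over the 36 genes, 0.94 over the other mitosis genes and 0.57 over all lines. It exceeded the median of all lines in 36 of 36 genes, and in 21 of them it fell in the top 10 percent of all lines.

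**Figure D3:**
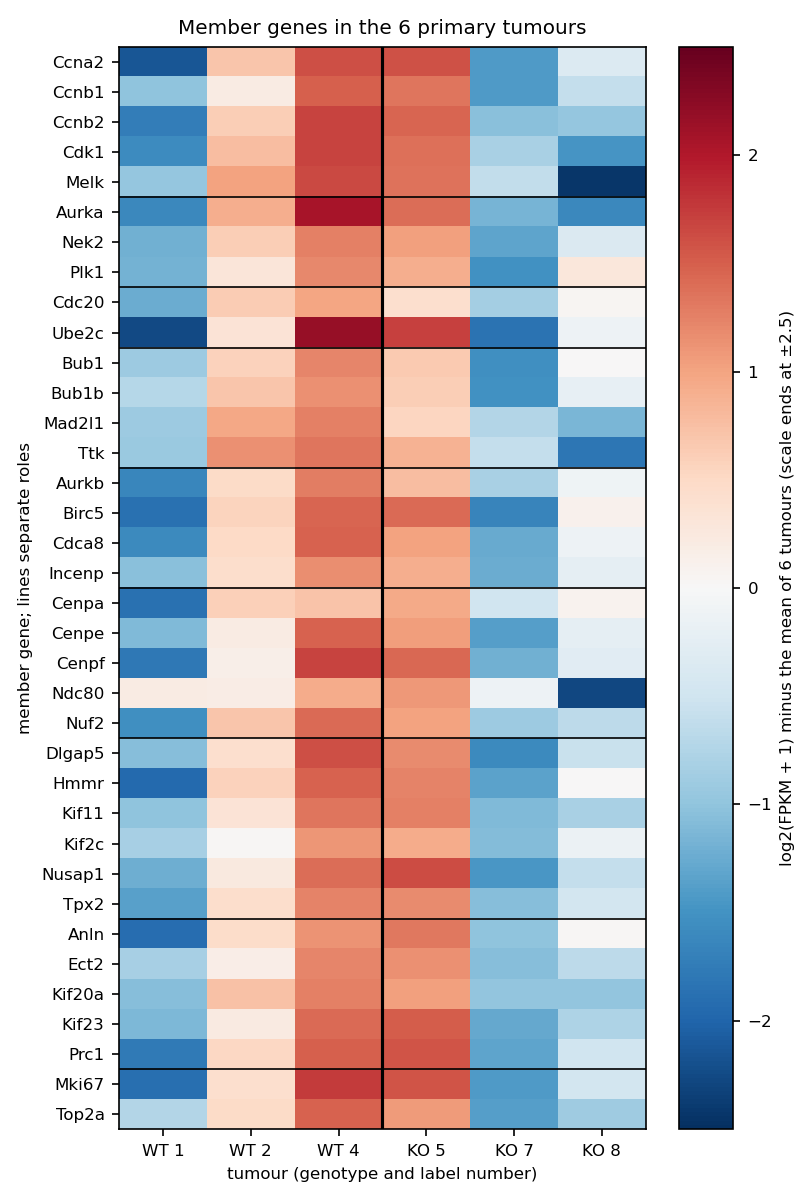
Level of each of the 36 genes (rows, by role) in the 6 tumours (columns, WT for Cxcr4+/+ and KO for Cxcr4-/- with the label number), as log2(FPKM + 1) minus the gene's mean over the 6 tumours, red above and blue below that mean. Columns WT 4 and KO 5 are red and WT 1 and KO 7 blue in nearly every row, and KO 8 holds the darkest cells for Melk, Ndc80 and Ttk.

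Cdk1 measured 6.41, 36.8 and 70.3 FPKM in Cxcr4+/+ 1, 2 and 4 and 56.7, 11.7 and 6.98 FPKM in Cxcr4-/- 5, 7 and 8. Both genotypes held a tumour below 7 FPKM and one above 56 FPKM, and the difference was -0.59 (95% interval -2.94 to 1.75). Ccnb1 was likewise highest in Cxcr4+/+ 4 and Cxcr4-/- 5, at 3.71, 9.92 and 25.6 FPKM and 23.1, 2.57 and 5.29 FPKM.

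Aurka was listed at 5.86, 38.3 and 86.7 FPKM in the Cxcr4+/+ tumours and at 53.8, 8.36 and 5.88 FPKM in the Cxcr4-/- tumours (difference -0.91, 95% interval -3.48 to 1.66). Plk1 measured 16, 46.6 and 88.2 FPKM and 71.8, 12.6 and 46.4 FPKM. The groups of both kinases overlapped, and they parted in Cxcr4-/- 8, which was near the bottom for Aurka and in the middle for Plk1. Cdc20 measured 11.2, 43.8 and 56.2 FPKM and 37.8, 15 and 28.9 FPKM, also with overlapping groups (difference -0.25, 95% interval -1.74 to 1.24).

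Mad2l1 was listed at 11.4, 44.1 and 54.4 FPKM in the Cxcr4+/+ tumours and at 32.7, 12.9 and 9.48 FPKM in the Cxcr4-/- tumours, a difference of -0.89 (95% interval -2.47 to 0.70). Ttk measured 2.12, 12.2 and 14.0 FPKM and 9.93, 2.96 and 0.704 FPKM (difference -1.02, 95% interval -3.05 to 1.00). The groups overlapped in both, with Cxcr4-/- 8 the lowest tumour of all. The 4 checkpoint genes had the lowest median difference of the roles, -0.81, with intervals that all included 0.

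Birc5 measured 22.7, 125 and 233 FPKM in the Cxcr4+/+ tumours and 228, 26.2 and 90.8 FPKM in the Cxcr4-/- tumours (difference -0.10, 95% interval -2.48 to 2.29). Its highest tumours, one of each genotype, were almost level. Ndc80 departed from the common order, at 13.5, 13.4 and 23.1 FPKM and 25.6, 10.5 and 1.62 FPKM. Here Cxcr4+/+ 1 was not low, and Cxcr4-/- 8 stood far below the rest.

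Melk measured 2.68, 13.4 and 21.5 FPKM in the Cxcr4+/+ tumours and 17.4, 3.71 and 0.326 FPKM in the Cxcr4-/- tumours. Its difference of -1.13 was the largest in size of the 36, and its interval was also wide (-3.60 to 1.35), with overlapping groups. Kif11 was listed at 18.4, 48.2 and 97.1 FPKM and 93.1, 17.1 and 21.2 FPKM, and Anln, with one of the 2 positive differences (0.23, the other being Cenpa at 0.36), at 4.32, 26.4 and 42.6 FPKM and 49.2, 9.0 and 19.3 FPKM. Both had overlapping groups.

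Top2a measured 58.9, 138 and 275 FPKM in the Cxcr4+/+ tumours and 208, 37.4 and 53.1 FPKM in the Cxcr4-/- tumours, a difference of -0.80 (95% interval -2.60 to 1.00). Mki67 measured 65.9, 329 and 821 FPKM and 734, 91.7 and 178 FPKM (difference -0.19, 95% interval -2.66 to 2.28). The groups overlapped in both genes. The joined Foxm1 entry was listed at 8.97, 22.0 and 52.0 FPKM and 38.1, 9.10 and 14.7 FPKM, in the same order of tumours as Ccnb2.

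Cxcr4-/- 8 did not lower all genes alike. After each gene's mean and the mean of the 36 genes in each tumour were subtracted, its values were -1.85 for Melk, -1.68 for Ndc80, -1.22 for Ttk, -1.01 for Aurka and -0.88 for Cdk1, against 0.88 for Plk1, 0.69 for Birc5 and Cenpa and 0.64 for Cdc20. In this library 13231 lines were listed at 0, the most of the 6 (10423 to 11433 in the others). The part of such failed or absent estimates in its low members was not tested.

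Markers of the red cell lineage, whose precursors also divide in spleen, were highest and lowest in the same tumours as the mitosis genes. The summed level of the erythroid markers was 3543, 17260 and 102554 FPKM in Cxcr4+/+ 1, 2 and 4 and 87161, 8504 and 18051 FPKM in Cxcr4-/- 5, 7 and 8, which is 0.962%, 4.59% and 18.6%, and 15%, 1.93% and 4.65%, of all FPKM. All of the 7 erythroid symbols with a line were above 0 in at least one tumour. Klf1, an erythroid transcription factor, measured 0.145, 245 and 386 FPKM and 428, 51.5 and 173 FPKM. The tumours with the highest mitosis levels, Cxcr4+/+ 4 and Cxcr4-/- 5, had the most erythroid signal, and Cxcr4+/+ 1 and Cxcr4-/- 7, with the lowest levels, the least. Between these the order broke. Cxcr4-/- 8 had a higher erythroid sum than Cxcr4+/+ 2, though lower Klf1, and a lower mitosis level (4.32 against 5.42). Much of the sum was haemoglobin RNA, with 53797 and 22307 FPKM in the 2 lines of Hba-a2 in Cxcr4+/+ 4.

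T lineage markers ran broadly the other way. They summed to 5293, 1448 and 1841 FPKM in the Cxcr4+/+ tumours and 1995, 4215 and 3408 FPKM in the Cxcr4-/- tumours. All 10 of these markers were above 0 in at least one tumour. Markers of resting T cells summed to 918, 353 and 389 FPKM and 690, 1339.7 and 727 FPKM, and neutrophil markers to 208, 3082 and 5.52 FPKM and 65.6, 315 and 160 FPKM, highest in Cxcr4+/+ 2. The part of these other cells in the level of the mitosis genes was not tested. Stroma markers summed to between 0.977 and 22.9 FPKM in the tumours, beside 13.9 to 203 FPKM ex vivo. Of the 9 stroma symbols, 6 were listed at 0 in every tumour, against 2 in every ex vivo sample. Erythroid markers summed to at most 5.51 FPKM ex vivo and neutrophil markers to 0. Whether the tumours were on feeder cells when RNA was taken was not tested.

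**Figure D4:**
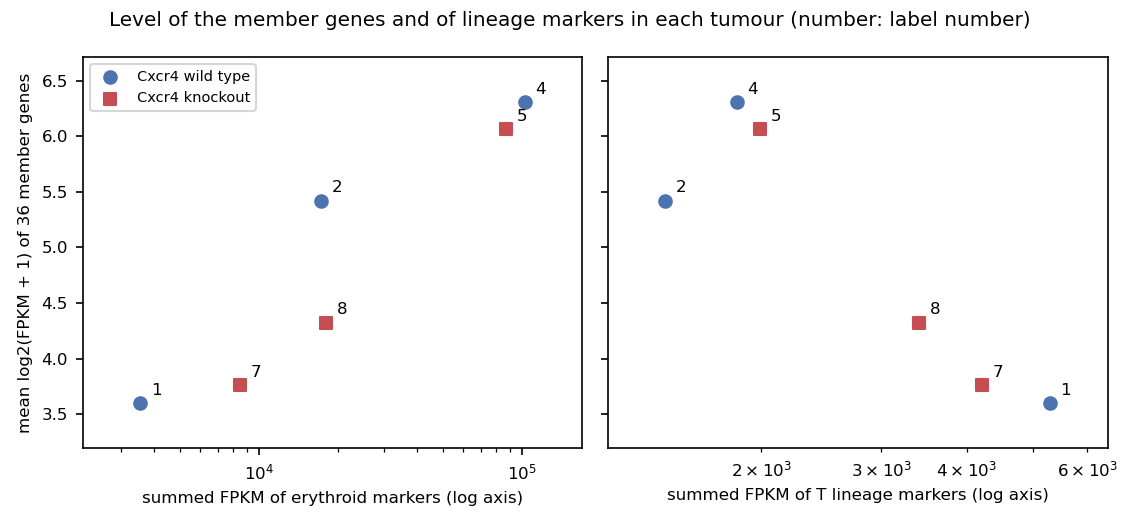
Mean log2(FPKM + 1) of the 36 genes (y axis) against the summed FPKM of erythroid markers (left) and of T lineage markers (right), both on log x axes, for the 6 tumours, with circles for Cxcr4+/+, squares for Cxcr4-/- and label numbers beside them. Tumours 4 and 5, at 6.31 and 6.07, have the most erythroid signal and tumours 1 and 7, at 3.60 and 3.76, the most T lineage signal.

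Of the 121 other mitosis genes in the tumours, 0 passed the test in either direction (limma), 0 reached an unadjusted p under 0.05, 99 had a mean difference below 0, and the median was -0.29. In 4 genes the genotypes did not overlap (3.31%, against 9.21% of all lines). These were Cdc16 and Cenpo, a subunit of the anaphase-promoting complex and a centromere protein, with Cep192, a centrosome scaffold, all lower in Cxcr4-/-, and Ensa, the relative of Arpp19, higher. Ensa measured 38.0, 31.5 and 39.5 FPKM in the Cxcr4+/+ tumours and 56.6, 46.8 and 51.4 FPKM in the Cxcr4-/- tumours (difference 0.50, limma, adjusted p = 0.986). Cenpo measured 7.62, 8.16 and 8.86 FPKM and 4.17, 4.94 and 4.76 FPKM (difference -0.71, limma, adjusted p = 0.986). These 4 genes were singled out after their values were seen. The genes with the smallest p of each list, none past the test, included some listed at 0 in Cxcr4-/- 8, and for Cenpp and Haus7 also in Cxcr4-/- 7: Ube2s (-1.93), Mastl (-1.21), Cenpp (-2.17), Haus7 (-2.11), Haus5 (-1.52) and Cep55 (-1.50). The others were Smc4 (-0.39), Ncaph (-0.61), Ncapd2 (-0.50), Pttg1 (0.80), Pds5b (-0.44), Smc1a (-0.36), Anapc5 (-0.81), Cdc25a (-0.59), Cenpt (-0.66), Tacc3 (-1.56), Pdcd6ip (0.41) and Chmp4b (0.10). Every 95% interval of these differences included 0.

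**Figure D5:**
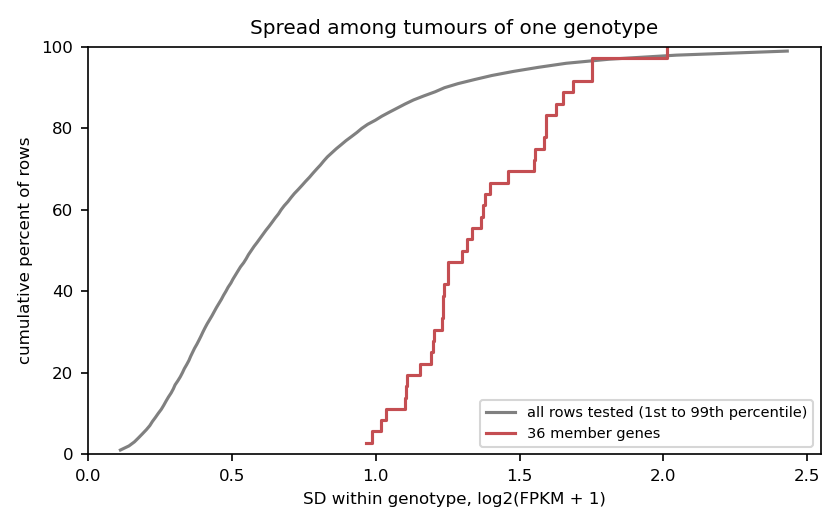
Cumulative percent of lines (y axis) by standard deviation within a genotype (x axis, log2(FPKM + 1)), for all 10741 lines tested in the tumours in grey and the 36 genes in red. The red line runs from 0.97 to 2.01, to the right of most of the grey one, whose median is 0.57.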

How the data were processed

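RNA sequencing (poly-A selected, dUTP strand-specific, 50-base single reads, per the labels' protocols) had been summarised by the authors as FPKM in 2 deposited tables of 6 samples each. CASAVA, TopHat and build mm9 are named in the submitters' processing notes. Which program and annotation gave the FPKM values is not given in the sources used here. No coordinates of that build were used.

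Columns were matched to samples by name. FPKM values are not counts, so two-sided tests of limma 3.58.1 (lmFit and eBayes with trend, in R 4.3.3) were fitted to log2(FPKM + 1) over lines with a mean of at least 1 FPKM, each table alone, with Benjamini-Hochberg adjustment over all lines and calls at an adjusted p under 0.05. The fits were tested on simulated data. Ex vivo the replicate number was a block. What that number marks is not stated in the labels. Same-numbered deviations correlated at 0.467, 0.579 and 0.619 (limit 0.1), different numbers at -0.473 to 0.0455. Replicates had Spearman correlations of 0.909 to 0.962 and none looked like one library deposited again. Depth was compared only through the steps between low FPKM values.

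Given with every sample are 1 anchor or more per role in both comparisons. The called members and the 6 largest differences are given so at least in the comparison where they were called or largest. Of each other list the 3 genes with the smallest p are named in each comparison, along with the remaining calls. Members and lists were chosen with earlier results of these data known. Marker lists for B cells (0.267 to 0.802 FPKM ex vivo, 1.49 to 17.5 FPKM in the tumours) and macrophages (1.53 to 2.88 and 11.9 to 336 FPKM) were summed too. Alternatives were pseudocounts of 0.1 and 0.5, minimums of 0.1 and 5 FPKM or none, median-of-ratios and quantile scaling, no trend, an adjusted p under 0.10, no block, a transcript length correction and leaving out samples. The length correction used the longest annotated transcript of each gene. Counting the joined Foxm1 entry was added after seeing the data.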

Additional observations from a re-analysis of the deposited data

How the results depend on the processing

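The 6 members lower ex vivo stayed 6 with a pseudocount of 0.1 or 0.5 (9.97% and 9.91% of all lines were lower there). They also stayed 6 with a minimum of 0.1 FPKM (7.31%) or of 5 FPKM (13.1%, with 36 members tested). The same held with median-of-ratios scaling (9.77%) and with the joined Foxm1 entry counted (added after seeing the data). They became 3 with no minimum (3.88% of all lines were lower there), 2 with quantile scaling (8.96%), 1 (Birc5) without the trend (4.69%), 12 at an adjusted p under 0.10 (16.7%) and 0 without the replicate block (0.0781%), and 0 to 2 when a pair was left out (0.0196% to 6.08%). With the block and a transcript length correction, 4 were called (Cdk1, Cdc20, Birc5 and Mad2l1, against 6.73% of all lines). Members higher went from 0 to 1 (Ube2c) with quantile scaling (9.72% of all lines were higher) and 2 (Ube2c, Cenpe) at an adjusted p under 0.10 (17.1%). The 15 other mitosis genes lower became 9 with a minimum of 0.1 FPKM (7.31% of all lines were lower there) and 18 with a minimum of 5 FPKM (13.1%). They became 4 with no minimum (3.88%), 2 without the trend (4.69%) and 34 at an adjusted p under 0.10 (16.7%). Without the block 0 were lower (0.0781%), without a pair 0 to 4 (0.0196% to 6.08%) and with the length correction 9 (6.73%). The 3 higher became 1 with no minimum (3.51% of all lines were higher there), 5 with quantile scaling (9.72%) and 1 with no trend (5.93%). They became 9 at an adjusted p under 0.10 (17.1%). None were higher without the block (0.0488%), without any one pair (0.0296% to 5.7%) or with the length correction (6.15%). The member median ex vivo lay between -0.20 and -0.10 when a pair was left out. In the tumours 0 members and 0 others were called under every alternative run, and the member median ranged from -1.07 to 0.25 when a tumour was left out. The cause of these changes was not tested. With 3 samples a group and an unknown read number, members at a few FPKM, such as Cks2, are the least precise.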
